A study of Homo sapiens with 18 samples.

Results

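The 6 GFP low libraries taken at 48 and 72 h were compared, 3 against 3, out of 18 libraries in the series. They were chosen by their labels alone, all libraries of these groups were used, and 16474 genes passed a filter on low counts. The cells are the Raji line of B cells, established from a human Burkitt lymphoma and labelled Smarca4+/+, in which SMARCA4 (also called BRG1) protein can be broken down through an auxin-inducible degron. The 18 libraries hold GFP high and GFP low cells at 24, 48 and 72 h. Column names of some libraries join GFP and BRG1, without stating what the GFP signal reports. The sources used here do not give its meaning, the way of separating the fractions, whether both received auxin or when the hours start. The values therefore describe passing time in the GFP low fraction and no loss of protein. No labelled untreated library is among them, and a change over time that GFP high cells shared cannot be told apart from one of culture. The labels name 1 cell line and no clone, and separate cultures are not stated for the 3 libraries of a group. The p-values therefore measure only how these libraries spread, and that spread may be technical.

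SMARCA4 is the ATPase of the BAF (SWI/SNF) complexes, which slide and evict nucleosomes and so open enhancers and promoters. Raji cells descend from the germinal centre, where B cells cycle in a dark zone, are selected in a light zone through the B cell receptor, CD40 and NF-kB, and leave as memory or plasma cells, while the repressor BCL6 holds the germinal centre programme in place. A tumour cell line also senses its supply of amino acids and sterols: the kinases of the integrated stress response raise translation of ATF4, which switches on amino acid synthesis and transport and tRNA ligases, and falling membrane sterol releases SREBP factors, which switch on genes of cholesterol and fatty acid synthesis.

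The 6 libraries held 27257876 to 51690031 counts in genes. Mitochondrial genes took 2.87% to 2.95% at 48 h and 3.81% to 3.98% of counts at 72 h in GFP low cells, and 3.63% to 3.78% and 2.67% to 2.79% in GFP high cells. All 12 B cell markers were expressed, with a summed level of 5950 to 6262 CPM (counts scaled to a common library size with TMM factors) at 48 h and 5953 to 6271 at 72 h. Of the markers of other cells, 8 of 12 for T cells, 3 of 9 for myeloid, 2 of 7 for erythroid and 3 of 12 for epithelial, kidney and fibroblast cells passed the filter. Their summed levels at 48 and 72 h were 41.4 to 45.4 and 41.8 to 45.3, 0.818 to 1.53 and 0.708 to 0.782, 3.65 to 4.004 and 2.55 to 3.36, and 7.50 to 8.37 and 3.26 to 4.40 CPM. CD2, CD8A, S100A8, FCGR3A, HBA1, HBA2, ALAS2, PAX8, COL1A2 and COL3A1 had 0 counts in all 6 libraries. In the last of these groups VIM, an intermediate filament, fell by 1.25 ± 0.18 and COL1A1, a collagen chain, by 1.12 ± 0.14 on the log2 scale, and their part in other results was not tested. In bulk RNA, fewer cells of a kind and less RNA per cell cannot be told apart.

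From 48 to 72 h, most tested stress response, lipid synthesis, histone and mitochondrial protein-coding genes rose in GFP low cells, and among NF-kB targets, MHC class II genes and the longest transcripts more fell than rose. By edgeR's quasi-likelihood test 4353 genes (26.4%) passed an adjusted p of 0.05 (Benjamini-Hochberg, all genes tested), of which 2286 rose (13.9%) and 2067 fell (12.5%). Of all genes 13.7% rose and 14.2% fell in GFP high cells. With the library set as a block, since the 3 sets pair the libraries, 3440 rose and 2881 fell. Most changes were small: the median size among called genes was 0.22 on the log2 scale, and 129 genes (0.783%) rose and 278 (1.69%) fell by at least 2-fold. Of the 4353 called genes, 4325 moved the same way in all 3 sets and 4194 had no overlap between the 3 and 3 libraries, against 39.6% of all genes without overlap (20.1% higher and 19.5% lower at 72 h). The median change of all genes was 0.01. Below, library values are CPM in the order unnumbered set, set 1 and set 2, log2 fold changes are 72 h against 48 h with ± SE, and "the difference" is the GFP low change minus the GFP high change, tested as an interaction. It was called for 1486 genes (9.02%): 855 (5.19%) had a higher and 631 (3.83%) a lower change in GFP low cells, or 1927 and 1404 with the library set as a block.

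Amino acid response genes rose as a group, and 7 of them carry in their promoters the composite element TGATGCAA that ATF4 binds with C/EBP partners. The promoter of CHAC1 is shown whole and the others as 60-base stretches around the element, since these genes share a sequence as well as a direction. The sequences are RefSeq promoters of GRCh38.p14, from 250 bases before to 50 after the gene start, 5′ to 3′ on the gene's strand, and capitals mark the element in either orientation.
CHAC1, chr15:40953221-40953520, plus strand: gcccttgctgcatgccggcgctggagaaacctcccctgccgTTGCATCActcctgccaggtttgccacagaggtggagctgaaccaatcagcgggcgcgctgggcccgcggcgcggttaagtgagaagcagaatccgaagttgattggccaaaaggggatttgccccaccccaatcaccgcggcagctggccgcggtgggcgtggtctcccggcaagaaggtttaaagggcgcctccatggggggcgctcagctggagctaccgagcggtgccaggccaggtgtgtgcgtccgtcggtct
AARS1, chr16:70289660-70289719, minus strand: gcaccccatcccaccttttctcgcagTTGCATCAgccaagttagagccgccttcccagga
IARS1, chr9:92293677-92293736, minus strand: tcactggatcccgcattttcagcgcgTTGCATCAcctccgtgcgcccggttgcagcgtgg
MARS1, chr12:57488038-57488097, plus strand: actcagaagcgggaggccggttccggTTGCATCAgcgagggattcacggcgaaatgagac
NARS1, chr18:57621789-57621848, minus strand: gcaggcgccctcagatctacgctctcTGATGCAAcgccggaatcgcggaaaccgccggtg
CEBPG, chr19:33374045-33374104, plus strand: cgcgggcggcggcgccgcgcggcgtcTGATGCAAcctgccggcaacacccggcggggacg
SLC1A5, chr19:46784878-46784937, minus strand: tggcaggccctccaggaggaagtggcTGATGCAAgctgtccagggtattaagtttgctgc
The element, searched as TGATGCAA and its reverse complement TTGCATCA, is in 0.866% of all 35116 promoters, in 0.588% of those of tested genes and in 13.2% of the 53 promoters of the tested stress response genes, 34 of which had an entry. The 7 genes with it had a median change of 0.36 and the 27 with an entry and no match a median of 0.47. A match is a description of the sequence, and genes without these letters rose as well.

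Of 40 integrated stress response genes tested (43 in the list), 36 rose and 0 fell, against 13.9% of all genes rising, with a median of 0.41. Their summed level went from 7778 to 7858 CPM at 48 h to 9791 to 9909 at 72 h. CHAC1, a glutathione-degrading enzyme and a classic ATF4 target (ENSG00000128965.13, chromosome 15, 40952962 to 40956512, plus strand in hg38), had 6.45, 6.35 and 7.74 CPM at 48 h and 17.3 to 20.1 CPM at 72 h, with means of 6.85 ± 0.775 and 19.1 ± 1.6 CPM (SD, n = 3). Every 72 h library lay above every 48 h library, as in 20.1% of all genes. The rule for ranked genes requires such a gap, so it is no added support. The log2 fold change of 1.47 ± 0.08 (adjusted p = 1.42e-11) was the largest of the list. At 24 h the GFP low libraries had 3.998, 3.246 and 3.942 CPM, with a change of 0.88 ± 0.10 from 24 to 48 h; both steps use the same 48 h libraries.

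The factor ATF4 itself had 447.1, 438.9 and 456.8 CPM at 48 h and 634.5, 626.3 and 656.4 CPM at 72 h, a rise of 0.51 ± 0.02 (adjusted p = 4.57e-13). The 6 tested transcription factors of the response all rose, with a median of 0.57. SESN2, a leucine sensor that restrains mTORC1, rose by 1.02 ± 0.06 and DDIT4, another brake on mTORC1, by 0.97 ± 0.05. In amino acid synthesis, the serine pathway enzyme PSAT1 rose from 202.6, 204.8 and 203.4 CPM to 354.5, 350.1 and 338.5 CPM, by 0.77 ± 0.03 (adjusted p = 3.51e-14), and the asparagine synthetase ASNS by 0.75 ± 0.11.

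All 9 tRNA ligases of the list rose, by 0.12 to 0.57. GARS1, the glycine ligase, was among the most precisely measured, with 687.2, 688.0 and 683.3 CPM at 48 h and 934.0, 928.5 and 938.1 CPM at 72 h, and a change of 0.44 ± 0.01 (adjusted p = 1.65e-15). The tryptophan ligase WARS1 rose by 0.57 ± 0.02, and the ligases with the printed element by 0.38 (AARS1), 0.37 (MARS1), 0.21 (NARS1) and 0.15 (IARS1). Of 6 amino acid transporters 5 rose, among them the cystine carrier SLC7A11 by 0.51 ± 0.03 and the glutamine carrier SLC1A5 by 0.32 ± 0.04. The 2 synthesis enzymes ALDH18A1 (proline) and PSPH (serine) were not called, with -0.03 ± 0.02 and -0.00 ± 0.03, although PSPH belongs to the same pathway as PSAT1.

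GFP high cells moved much the same way: 34 of the 40 genes rose and 0 fell there, with a median of 0.44, and the difference was called for 7 of the 40. Outside the list, 2 of the genes with the largest changes are INHBE, an activin subunit, which rose by 1.38 ± 0.12, and DBNDD1, a dysbindin domain protein. DBNDD1 had 0.998, 1.45 and 1.35 CPM at 48 h and 4.71, 4.81 and 5.19 CPM at 72 h, and with 1.95 ± 0.14 (adjusted p = 8.54e-10) it led the genes that the rule for ranks admits. It also rose in GFP high cells, by 1.19, and its difference of 0.77 ± 0.19 was called (adjusted p = 0.0136), but not without the unnumbered GFP low (0.0583) or the set 2 GFP high library at 48 h (0.0554). Of 22 unfolded protein response genes, which answer to misfolded protein in the endoplasmic reticulum, 8 were called as rising and 1 as falling (median 0.06), but leaving out any 1 of the 6 libraries left 4 or 5 rising.

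**Figure D1:**
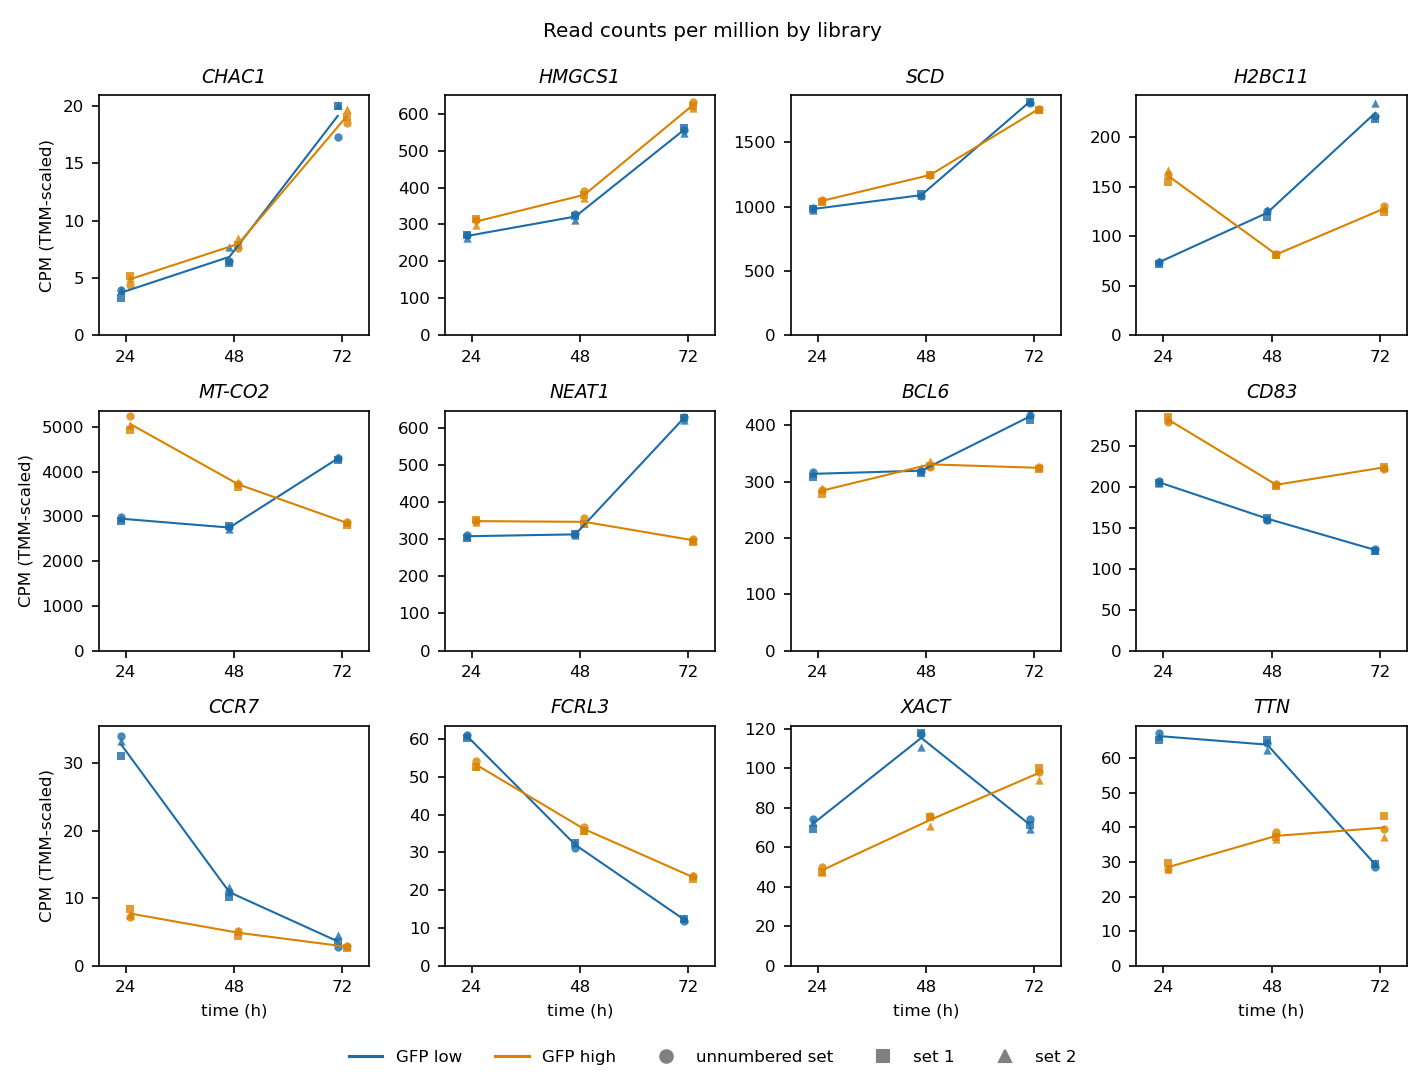
CPM of 12 genes (vertical axes, starting at 0) in GFP low (blue) and GFP high (orange) cells at 24, 48 and 72 h; each point is 1 library, its shape gives the set and lines join the means of 3 libraries. CHAC1, HMGCS1 and SCD rose in both fractions from 48 to 72 h, MT-CO2 and NEAT1 rose in GFP low and fell in GFP high cells, and TTN fell in GFP low cells.

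Sterol and fatty acid synthesis genes rose together. Of 24 cholesterol synthesis genes 23 rose and 0 fell; the median was 0.35, and their summed level went from 2935 to 2954 CPM at 48 h to 3957 to 3982 at 72 h. HMGCS1, the cytosolic HMG-CoA synthase at the entry to the pathway (ENSG00000112972.15, chromosome 5, 43287470 to 43313512, minus strand), had 327.2, 324.2 and 313.0 CPM at 48 h and 556.7, 561.3 and 546.9 CPM at 72 h. The groups did not overlap, which the rule for ranked genes requires, and the change was 0.79 ± 0.02 (adjusted p = 4.02e-16). INSIG1, which retains SREBP factors in the endoplasmic reticulum and is itself an SREBP target, rose by 0.74 ± 0.02, the thiolase ACAT2 by 0.39 ± 0.02 and the squalene synthase FDFT1 by 0.35 ± 0.02.

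Of 13 fatty acid synthesis genes 11 rose and 0 fell, with a median of 0.29. SCD, which places the double bond in stearate and palmitate (ENSG00000099194.6, chromosome 10, 100347233 to 100364826, plus strand), had 1080, 1095 and 1092 CPM at 48 h and 1807, 1810 and 1822 CPM at 72 h. Its libraries lay within a few percent of each other at each time, and the change of 0.74 ± 0.01 had an adjusted p of 7.65e-20. FADS1, a desaturase of polyunsaturated fatty acids, rose by 0.64 ± 0.03, the elongase ELOVL6 by 0.43 ± 0.03 and the citrate lyase ACLY by 0.29 ± 0.02. The noncoding RNA OLMALINC, which lies beside SCD on chromosome 10, rose from 12.93, 13.99 and 14.11 CPM to 32.2, 33.5 and 30.9 CPM, by 1.23 ± 0.05 (adjusted p = 3.77e-14).

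The GFP high fraction shared this, with 23 of the 24 cholesterol genes and 10 of the 13 fatty acid genes rising and medians of 0.38 and 0.25. SCD was an exception in size: it rose by 0.50 in GFP high cells, and the difference of 0.24 ± 0.02 was called (adjusted p = 1.29e-08). For FDFT1 the change in GFP high cells was the larger, 0.49. Of the 24 cholesterol genes, 2 had a called difference, both with the lower change in GFP low cells.

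Histone transcripts of the replication-dependent kind, which lack a poly(A) tail and are made in S phase, rose while most genes of DNA replication did not. Of 49 tested histone genes (54 in the list) 46 rose and 0 fell (median 0.68), and the sum went from 5311 to 5682 CPM to 8035 to 8538 CPM. These genes have near-identical copies, so that the reads of single members are uncertain. By family the medians were 0.84 for 12 H2A genes, 0.60 for 15 H2B, 0.64 for 8 H3, 0.83 for 10 H4 and 0.26 for 4 of the linker histone H1. H4C3 had 122.5, 109.2 and 117.0 CPM at 48 h and 246.1, 227.7 and 241.5 CPM at 72 h, a rise of 1.04 ± 0.04 (adjusted p = 3.76e-14).

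H2A and H2B genes often lie in divergent pairs and share the octamer ATTTGCAT, which the POU factor OCT1 and its coactivators bind. Stretches of 60 bases are printed for 3 of them, with the octamer in capitals in either orientation.
H2AC8, chr6:26216703-26216762, plus strand: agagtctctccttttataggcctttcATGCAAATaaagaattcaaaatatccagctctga
H2BC11, chr6:27132809-27132868, minus strand: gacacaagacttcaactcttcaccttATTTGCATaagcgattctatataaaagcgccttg
H2AC14, chr6:27814948-27815007, minus strand: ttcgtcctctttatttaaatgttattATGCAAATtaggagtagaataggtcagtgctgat
The octamer, or ATGCAAAT on the other strand, is in 1.77% of all promoters. It is in 9 of 11 H2A and 13 of 17 H2B promoter entries of the tested genes, and in 0 of 7 for H3, 0 of 8 for H4 and 0 of 4 for H1. The median change was 0.83 for H4 genes and 0.84 for H2A genes. It was 0.68 for the 21 histone genes with the octamer and 0.60 for the 23 with an entry and no match. The difference was called as higher in GFP low cells for 16 of the 21 and 10 of the 23. The part of the octamer in these changes was not tested.

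H2BC11 had 125.4, 119.8 and 126.3 CPM at 48 h and 221.9, 218.1 and 234.3 CPM at 72 h, a rise of 0.86 ± 0.03 (adjusted p = 1.47e-14). H2AC8 rose by 0.87 ± 0.04, H2AC14 by 0.88 ± 0.07 and H2AC20 by 0.91 ± 0.06. Of the 49 histone genes, 45 also rose in GFP high cells and 1 fell (median 0.44). The change was higher in GFP low cells for 28 genes and lower for 0, for instance by 0.39 ± 0.06 for H2AC8 (adjusted p = 0.000244, or 0.0502 with a length trend removed) and 0.21 ± 0.05 for H2BC11.

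Of 55 genes of S phase and replication 0 rose and 30 fell, with a median of -0.09; with the library set as a block 3 rose and 36 fell. CCNE2, a cyclin of the G1 to S transition, fell from 47.0, 44.3 and 43.6 CPM to 34.9, 34.3 and 33.3 CPM, by 0.40 ± 0.04 (adjusted p = 1.96e-07). The nucleotide reductase subunit RRM2 fell by 0.26 ± 0.02, the checkpoint mediator CLSPN by 0.29 ± 0.03 and the helicase subunit MCM4 by 0.20 ± 0.01. The same 30 of 55 count was found in GFP high cells for falls, with a median of -0.10.

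Genes of G2 and M phase were divided, with 10 rising and 11 falling of 55 and a median of -0.01; leaving out the set 1 48 h, set 2 48 h, set 1 72 h or set 2 72 h library left 5 or 6 rising. The spindle protein TACC3 fell by 0.23 ± 0.03 and the checkpoint kinase BUB1 by 0.20 ± 0.03, and HMGB2 and PTTG1, a chromatin protein and the securin, rose by 0.20 ± 0.03 and 0.16 ± 0.03. The cell cycle inhibitor CDKN1A (p21) went from 13.97, 13.58 and 14.53 CPM to 24.6, 23.5 and 25.5 CPM, a rise of 0.81 ± 0.05 (adjusted p = 7.95e-11), and it rose by 1.00 in GFP high cells. CCNE1 and CDK4, which drive G1, fell by 0.29 ± 0.05 and 0.18 ± 0.03. The list of G1 cyclins, kinases and inhibitors was split, with 4 rising and 4 falling of 18 (22.2% each) and a median of -0.04. Without the set 1 72 h library 2 of them rose.

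**Figure D2:**
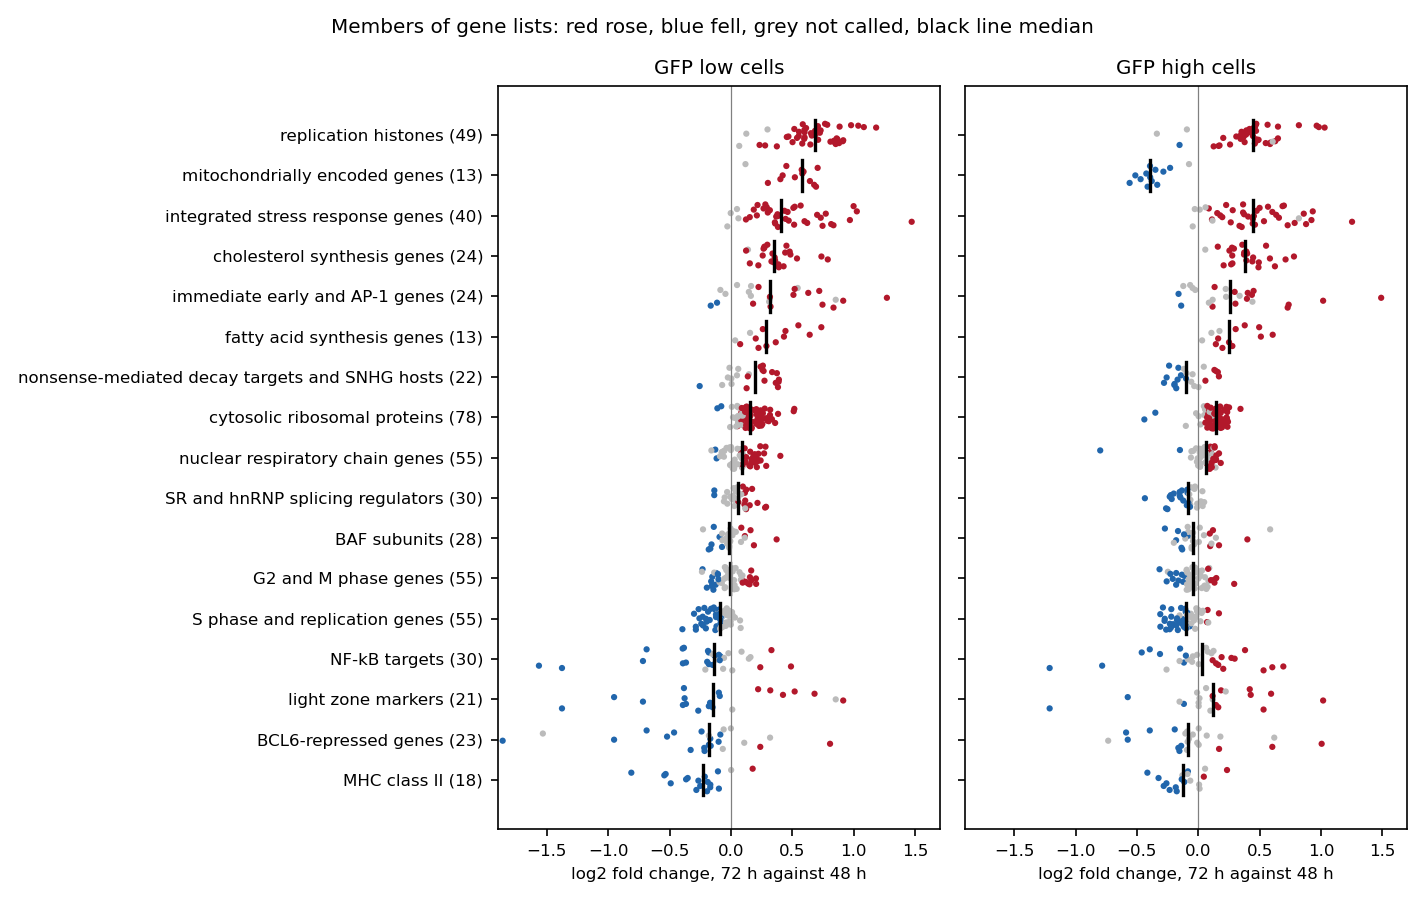
Log2 fold change of 72 h against 48 h for the tested members of 17 gene lists in GFP low (left) and GFP high cells (right); the number tested stands beside each name, red members rose, blue fell, grey were not called, and the black line is the median. Mitochondrially encoded genes have medians of 0.58 and -0.39 in the 2 fractions, while stress response and cholesterol genes lie at like values in both.

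Protein-coding transcripts of the mitochondrial genome rose in GFP low and fell in GFP high cells. Of the 13 protein-coding genes 12 rose and 0 fell in GFP low cells, with a median of 0.58, and 12 fell and 0 rose in GFP high cells, with a median of -0.39. From 24 to 48 h their median change in GFP low cells was -0.23. All mitochondrial genes together took 3.48% to 3.64% of counts at 24 h in GFP low cells, so the 48 h libraries stand below both other times. In GFP high cells they took 4.27% to 4.62% at 24 h, above both later times. MT-CO2, a core subunit of cytochrome oxidase, had 2756, 2776 and 2717 CPM at 48 h and 4296, 4258 and 4322 CPM at 72 h in GFP low cells, a rise of 0.64 ± 0.02 (adjusted p = 3.89e-16). Its GFP high libraries had 3720, 3647 and 3775 CPM and then 2878, 2809 and 2880 CPM. At 48 h all GFP low libraries lay below all GFP high ones and at 72 h all lay above, and the difference was 1.02 ± 0.03 (adjusted p = 1.04e-16).

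MT-ATP6, a subunit of ATP synthase, had the largest positive difference of a mitochondrial protein gene, 1.11 ± 0.07 (adjusted p = 1.88e-10), and MT-ND4 of complex I had 0.92 ± 0.04. All 12 genes called in the GFP low fraction had a called difference. The exception is MT-ND6, the protein gene on the light strand, with 166.3, 158.1 and 165.2 CPM at 48 h and 188.3, 166.2 and 176.4 CPM at 72 h. The groups overlap narrowly, at 166.2 and 166.3 CPM, and its change of 0.12 ± 0.05 was not called (adjusted p = 0.0947), but was with the library set as a block (0.000142) or without the set 1 72 h library (0.0414). Mitochondrial tRNA genes mostly were not called in GFP low cells: of 20, 3 rose and 1 fell (median 0.09), against 13.9% and 12.5% of all genes. Of the 20, 0 rose and 11 fell in GFP high cells. Among them the isoleucine tRNA MT-TI rose by 0.56 ± 0.10 with a difference of 1.06 ± 0.14; its rise in GFP low cells was not called with a length trend removed (adjusted p = 0.135).

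The mitochondrial ribosomal RNAs rose in GFP high cells. MT-RNR1 and MT-RNR2, which the library kit is made to remove, had at most 0.261 and 0.224 CPM in all 6 GFP low libraries at 48 and 72 h and were not called. MT-RNR1 passed without the set 2 72 h library (adjusted p = 0.0458). In GFP high cells they had 0.0638 to 0.0839 and 0.0419 to 0.389 CPM at 48 h and means of 7.36 ± 0.906 and 12.05 ± 1.78 CPM (SD, n = 3) at 72 h, with differences of -5.24 ± 0.86 and -5.61 ± 0.72. The part of the removal step in these levels was not tested.

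Nuclear genes of the respiratory chain, complex II included, had a smaller median than the mitochondrially encoded ones. Of 55, 27 rose and 2 fell (median 0.09), and 5 fell with the library set as a block; 4 fell without the set 2 72 h library, with the length trend removed or with scaling that leaves out mitochondrial genes. NDUFB1 of complex I rose by 0.40 ± 0.05, UQCRH of complex III by 0.28 ± 0.02, and SDHB of complex II fell by 0.13 ± 0.03. NDUFB1 was not called in GFP high cells (0.02), and its difference of 0.38 ± 0.08 was called (adjusted p = 0.00249). Of 27 genes of the machinery that expresses the mitochondrial genome, 1 rose and 6 fell, or 2 and 10 with the library set as a block.

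Cytosolic ribosomal protein genes rose by small amounts. Of 78, 60 rose and 2 fell (median 0.15), and 67 and 2 did so in GFP high cells (median 0.14). RPS21 rose most clearly, from 290.3, 276.4 and 284.1 CPM to 401.8, 399.1 and 411.2 CPM, by 0.51 ± 0.02 (adjusted p = 8.47e-13), against 0.16 in GFP high cells, a called difference of 0.35 ± 0.03 (adjusted p = 5.63e-07). RPS29 rose by 0.52 ± 0.03. The 2 that fell were RPS3A and RPSA, by 0.11 ± 0.02 and 0.08 ± 0.02. Many of these genes have processed pseudogenes, whose reads could be shared.

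The nuclear noncoding RNA NEAT1, the scaffold of paraspeckles, had the largest positive difference among ranked genes. NEAT1 (ENSG00000245532.9, chromosome 11, 65422774 to 65445540, plus strand) had 313.2, 314.6 and 310.4 CPM at 48 h and 628.9, 624.3 and 620.5 CPM at 72 h in GFP low cells, a rise of 1.00 ± 0.02 (adjusted p = 2.44e-19). At 24 h it had 309.9, 303.6 and 309.5 CPM, and the step from 24 to 48 h was not called (0.02 ± 0.02, adjusted p = 0.352). It fell by 0.22 in GFP high cells, where the mean went from 346.4 ± 8.47 to 297.1 ± 4.16 CPM (SD, n = 3). The difference was 1.22 ± 0.03 (adjusted p = 1.05e-17), so that GFP low libraries were all below GFP high ones at 48 h and all above at 72 h.

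MALAT1, its neighbour on the chromosome and a component of nuclear speckles, rose by 0.14 ± 0.02 in GFP low and fell by 0.45 in GFP high cells, with a difference of 0.59 ± 0.04. RN7SL1, the RNA of the signal recognition particle, had 1649, 1230 and 1600 CPM at 48 h and 3912, 3824 and 3945 CPM at 72 h, a rise of 1.38 ± 0.13 (adjusted p = 3.43e-08). It rose by 1.07 in GFP high cells, it has many near-identical copies, and its difference of 0.31 ± 0.18 was not called (adjusted p = 0.329). Abundant noncoding RNAs were also followed as signs of RNA quality: all 4 that were tested rose, with a summed level of 4637 to 5112 CPM at 48 h and 7883 to 8037 CPM at 72 h. Their part in the other results was not tested.

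Host genes of small nucleolar RNAs, whose spliced transcripts are degraded by nonsense-mediated decay, rose in GFP low cells like NEAT1. The list holds 16 host genes and 6 factors of the decay machinery. Of the host genes 12 rose and 0 fell in GFP low cells, with a median of 0.26, and 5 rose and 7 fell in GFP high cells, with a median of -0.08. SNHG15 went from 115.0, 116.1 and 120.1 CPM to 150.4, 154.1 and 155.7 CPM, by 0.39 ± 0.02 (adjusted p = 9.82e-11), and its difference was 0.56 ± 0.04. SNHG1 had a difference of 0.64 ± 0.04 and GAS5 of 0.38 ± 0.03, and 11 of the 16 had a called positive one. Of the decay factors SMG1, the kinase that licenses this decay, fell by 0.26 ± 0.02, UPF3B rose by 0.24 ± 0.04, and the other 4 were not called.

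Splicing regulators had the same contrast on a smaller scale. Of 30 SR and hnRNP genes 12 rose and 2 fell in GFP low cells (16 and 5 with the library set as a block), with a median of 0.06, and 0 rose and 17 fell in GFP high cells, with a median of -0.08. The difference was positive and called for 20 of 30 and negative for 0. HNRNPA2B1, an RNA-binding protein that packages nuclear pre-mRNA, went from 1855, 1820 and 1755 CPM to 2243, 2215 and 2161 CPM, by 0.29 ± 0.02 (adjusted p = 1.4e-08), with a difference of 0.35 ± 0.04. HNRNPA1 and HNRNPH1 had differences of 0.29 ± 0.03 and 0.30 ± 0.03.

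Activation genes of the light zone and of NF-kB fell. Of 30 NF-kB targets 3 rose and 17 fell in GFP low cells (6 and 21 with the library set as a block), with a median of -0.14, while 11 rose and 8 fell in GFP high cells. Without the set 2 48 h library 5 rose. The difference was lower in GFP low cells for 16 and higher for 1. CCR7, the receptor that draws B cells to the T cell zone (ENSG00000126353.3, chromosome 17, 40553769 to 40565472, minus strand), had 10.9, 10.1 and 11.7 CPM at 48 h and 2.83, 3.54 and 4.52 CPM at 72 h. All 72 h libraries lay under 5 CPM, and the change was -1.56 ± 0.11 (adjusted p = 5.4e-10), after 33.9, 31.0 and 33.2 CPM at 24 h. The change in GFP high cells was -0.78, and the difference of -0.78 ± 0.17 was called (adjusted p = 0.00572).

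CD83, a surface marker of light zone cells, fell from 160.2, 162.7 and 161.4 CPM to 123.9, 121.7 and 123.3 CPM, by 0.39 ± 0.02 (adjusted p = 2.88e-12). It rose by 0.14 in GFP high cells, and the difference of -0.54 ± 0.03 had an adjusted p of 1.36e-11. TNFAIP3 (A20), the deubiquitinase that damps NF-kB, fell by 0.69 ± 0.04, the chemokine CCL22 by 1.38 ± 0.08 and the cytokine subunit EBI3 by 0.72 ± 0.07. The differences were -0.29 ± 0.06 for TNFAIP3 and -0.56 ± 0.09 for EBI3, and for CCL22 it was not called (-0.17 ± 0.12). Against the majority, CCL3 and CCL4, chemokines that B cells release on receptor stimulation, rose by 0.24 ± 0.05 and 0.49 ± 0.07.

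Of 21 light zone markers 6 rose and 13 fell (median -0.15), and 11 had a lower change than in GFP high cells and 0 a higher one. Besides the genes above, GPR183, the oxysterol receptor that guides B cells, fell by 0.95 ± 0.07. Those that rose include the early response factor EGR1 by 0.91 ± 0.07 and the cytokine receptor IL21R by 0.42 ± 0.04. LMO2, which is in the dark zone list too and counts in both, rose by 0.68 ± 0.05. Dark zone markers were divided, 6 rising and 8 falling of 23 (26.1% and 34.8%, against 13.9% and 12.5% of all genes). Early response genes as a list rose more often: of 24, 12 rose and 2 fell (median 0.32), in GFP high cells also 12 and 2. FOS, an AP-1 subunit, had 2.09, 1.36 and 2.08 CPM at 48 h and 4.65, 4.06 and 4.73 CPM at 72 h, a rise of 1.27 ± 0.14 (adjusted p = 6.46e-07), and JUND rose by 0.72 ± 0.08.

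Among the genes with the largest falls were Fc receptor-like genes, which lie together on chromosome 1 and modulate B cell receptor signals. FCRL4, known from tissue memory B cells, fell from 2.46, 3.27 and 3.15 CPM to 0.462, 0.820 and 0.737 CPM, by 2.14 ± 0.21 (adjusted p = 1.11e-07). FCRL3 (ENSG00000160856.21, 157674321 to 157700769, minus strand) had 31.1, 32.4 and 32.6 CPM at 48 h and 11.97, 12.52 and 12.54 CPM at 72 h. FCRL2 fell from 1.388, 1.391 and 0.9152 CPM to 0.4925, 0.2235 and 0.3806 CPM (adjusted p = 3.22e-05). The fall of FCRL3 by 1.37 ± 0.04 (adjusted p = 1.66e-16) followed 61.0, 60.2 and 61.0 CPM at 24 h. It fell by 0.62 in GFP high cells, with a called difference of -0.76 ± 0.05 (adjusted p = 1.86e-09), while the differences of FCRL4 and FCRL2 were not called (-0.52 ± 0.31 and -0.25 ± 0.35).

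SLAMF7, a receptor of plasma cells and activated lymphocytes, fell from 12.2, 14.3 and 12.8 CPM to 6.25, 5.77 and 6.42 CPM, by 1.08 ± 0.08. It was not called in GFP high cells (-0.13), and the difference was -0.95 ± 0.10 (adjusted p = 1.93e-06). VCAM1, an adhesion molecule, had a difference of -0.95 ± 0.21, at levels under 4 CPM in GFP low cells. The chemokine CCL5 fell from 3.65, 3.68 and 3.24 CPM to 0.954, 1.01 and 1.45 CPM, by 1.59 ± 0.16 (adjusted p = 8.61e-08). Also among the larger falls were AHNAK, a scaffold protein, by 1.53 ± 0.19, the kinase SGK1 by 0.80 ± 0.03, and the lysosomal protease CTSH by 0.59 ± 0.03, with a difference of -0.41 ± 0.05 for CTSH.

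Transcripts of the MHC class II list fell for most members. Of 18 genes 1 rose and 16 fell (median -0.23), and their sum went from 4513 to 4745 CPM to 3837 to 3996 CPM; the single rise, of RFXAP, was lost in 4 of the 6 fits that leave out a library. HLA-DRA had 958.1, 959.4 and 955.0 CPM at 48 h and 834.3, 816.6 and 825.9 CPM at 72 h, a fall of 0.21 ± 0.02 (adjusted p = 2.45e-09). The difference of HLA-DRA was -0.26 ± 0.02 (adjusted p = 1.69e-07) and that of HLA-DRB1, which fell by 0.54 ± 0.07, was -0.41 ± 0.10; reads of the DRB genes can be shared between near-identical copies. CIITA, the master coactivator of these genes, fell by 0.28 ± 0.03, and MARCHF1, a ligase that removes class II from the surface, by 0.81 ± 0.15. In GFP high cells 2 rose and 10 fell. Of 17 MHC class I genes 0 rose and 4 fell (23.5%, against 12.5% of all genes), or 1 and 7 with the library set as a block.

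BCL6 rose in GFP low cells, by more than in GFP high cells in the test of the difference. BCL6 (ENSG00000113916.18, chromosome 3, 187721377 to 187745725, minus strand) had 318.0, 315.3 and 324.7 CPM at 48 h and 417.2, 409.5 and 419.0 CPM at 72 h, a rise of 0.38 ± 0.02 (adjusted p = 8.2e-12). In GFP high cells it was not called (-0.03), and the difference was 0.41 ± 0.03 (adjusted p = 3.8e-09). At 24 h it had 316.6, 308.7 and 315.8 CPM. Of 23 genes known to be repressed by BCL6, 2 rose and 14 fell (median -0.18), and 7 had a called difference, all lower in GFP low cells. In GFP high cells, where BCL6 was not called, 3 of the 23 rose and 7 fell (median -0.09). The part of BCL6 in these changes was not tested. Among the 23 genes PRDM1, the plasma cell repressor BLIMP1, fell from 80.0, 77.9 and 77.0 CPM to 54.6, 59.4 and 56.5 CPM, by 0.46 ± 0.04 (adjusted p = 1.81e-09), and by 0.59 in GFP high cells. BCL2, the survival factor, fell by 0.33 ± 0.04, and the 2 that rose were CDKN1A and CCL3.

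Of 27 B cell transcription factors 9 rose and 5 fell (14 and 7 with the library set as a block); 5 rose without the set 1 48 h or the set 2 72 h library. POU2AF1, the coactivator of octamer factors, rose by 0.18 ± 0.02, SPI1 (PU.1) by 0.36 ± 0.08, and IRF4, a factor of plasma cells, fell by 0.67 ± 0.14 at 1.4 to 2.9 CPM. The list of plasma cell genes, which holds IRF4, PRDM1, SLAMF7 and CD38, was divided. Of its 18 tested members 6 rose and 6 fell, with a median of 0.07. Surface genes of mature B cells did not move together: MS4A1 (CD20) fell by 0.27 ± 0.03 and CD22 rose by 0.32 ± 0.02. CD38 rose from 22.0, 24.1 and 23.0 CPM to 35.5, 35.2 and 35.9 CPM, by 0.63 ± 0.04, with a difference of 0.28 ± 0.05. The receptor signalling gene CD72 rose by 0.42. The glucocorticoid and FOXO target TSC22D3 rose by 0.84 ± 0.04 and by 0.89 in GFP high cells.

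**Figure D3:**
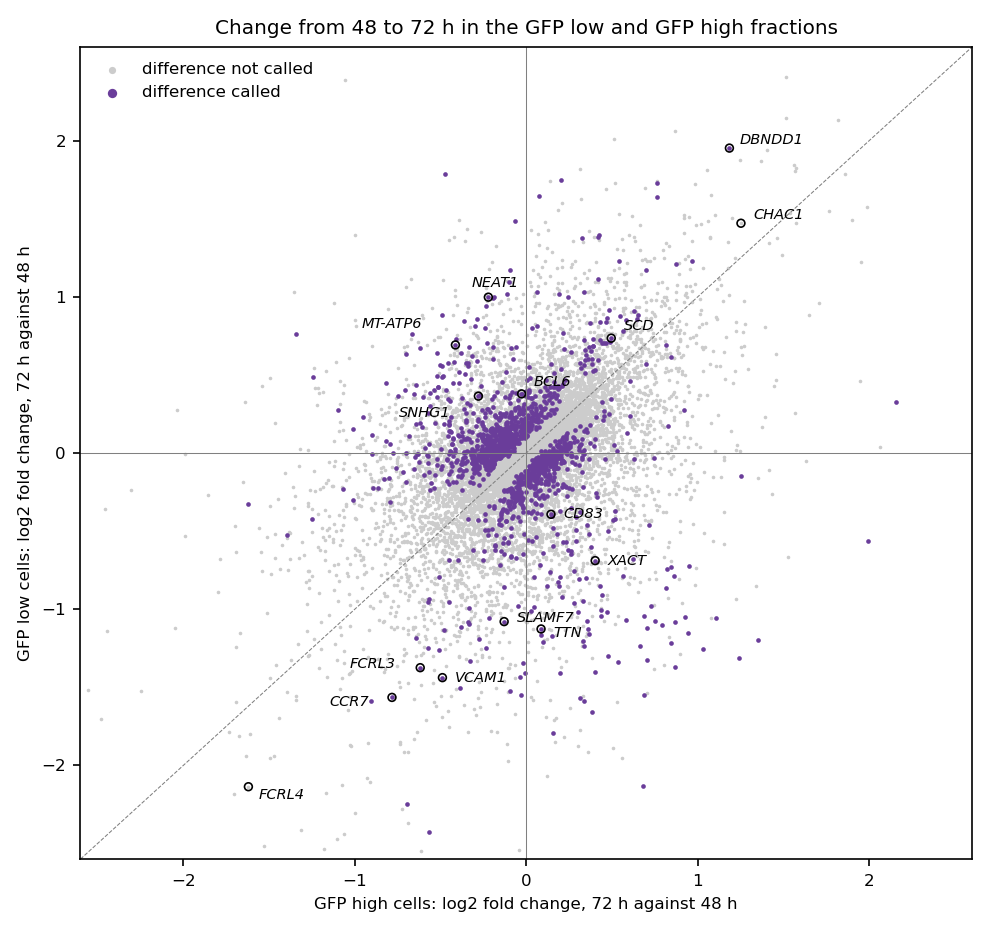
Log2 fold change of 72 h against 48 h in GFP high (horizontal) and GFP low cells (vertical) for the tested genes; purple genes have a called difference, the dashed line marks equal change, and 17 genes lie outside the axes. NEAT1, MT-ATP6 and SNHG1 lie at upper left, XACT and CD83 at lower right, and CHAC1 near the line of equal change.

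GFP low and GFP high changes had the same direction for 2105 genes called in both, and opposite directions for 174, all with a called difference. Of these 125 rose in GFP low and fell in GFP high cells and 49 did the reverse. The plot of the changes in both fractions shows most called differences close to the origin.

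BAF subunits moved in both directions, with 5 of 28 rising and 6 falling, against 26.4% of all genes called, and a median of -0.01. SMARCA4 mRNA had 473.1, 472.5 and 500.8 CPM at 48 h and 465.7, 465.1 and 490.1 CPM at 72 h in GFP low cells. The groups overlap, and the change of -0.03 ± 0.03 was not called (adjusted p = 0.579), but was with the library set as a block (0.0212). The transcript level does not check whether the protein was present. SMARCA2, the alternative ATPase, changed by 0.01 ± 0.03 (adjusted p = 0.821), the subunits ARID1A and ARID2 by -0.02 ± 0.03 and -0.01 ± 0.03. The largest rise was that of DPF1, by 0.37 ± 0.11 (adjusted p = 0.0141), which was not called without the unnumbered 48 h (0.0524), set 1 48 h (0.0661) or set 2 72 h library (0.161). BCL7A rose by 0.19 ± 0.03, and ACTL6A and PBRM1 fell by 0.17 ± 0.03 and 0.09 ± 0.03. Without the unnumbered 48 h library 2 subunits rose and without the set 2 72 h library 3; without the unnumbered 72 h or the set 2 48 h library 3 fell.

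A further 4 genes were put side by side after their values were seen. The ferritin chains FTH1 and FTL store iron and the transferrin receptor TFRC imports it. FTH1 had 2623, 2608 and 2593 CPM at 48 h and 1936, 1927 and 1966 CPM at 72 h, a fall of 0.42 ± 0.01 (adjusted p = 5.47e-16). TFRC fell from 823.8, 821.8 and 799.3 CPM to 626.3, 622.2 and 603.1 CPM, by 0.40 ± 0.02, and FTL by 0.23 ± 0.03. The quinone reductase NQO1 fell by 0.34 ± 0.03. FTH1, FTL and NQO1 are in the list of NRF2 targets, which did not fall as a group. Of its 17 tested members 5 rose, SLC7A11 among them, and 4 fell, with a median of 0.01. Without the set 2 48 h library 3 of them rose. In GFP high cells FTH1, TFRC, FTL and NQO1 fell by 0.34, 0.36, 0.17 and 0.19.

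Falls were more frequent among long transcripts, although most of these were not called. The length classes hold the 10102 genes that code for protein and average 1 CPM or more. Of the 128 with up to 1000 bases of exon 48.4% rose and 6.25% fell. Of the 357 with over 16000 bases 9.52% rose and 35.3% fell, with a median of -0.06. Histone and mitochondrial protein genes, most of which rose, were not taken out, and their part in the shortest class was not tested. Across the 10102 genes, which are not independent replicates, Spearman's rho of change and exon length was -0.12 in GFP low and -0.21 in GFP high cells. TTN, the giant muscle protein gene (ENSG00000155657.28, chromosome 2, 178525989 to 178830802, minus strand), had 64.2, 65.1 and 62.3 CPM at 48 h and 28.5, 29.4 and 29.8 CPM at 72 h. The fall of 1.13 ± 0.04 (adjusted p = 3.51e-14) was not seen in GFP high cells (0.09, not called), and the difference was -1.21 ± 0.06 (adjusted p = 1.33e-11); with a length trend removed the change was -0.86.

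XACT, a noncoding RNA of the X chromosome with 347964 bases of annotated exon, had 117.3, 118.0 and 110.9 CPM at 48 h and 74.1, 71.2 and 69.5 CPM at 72 h. It had 74.2, 69.1 and 72.6 CPM at 24 h, so the 48 h libraries stand above both other times. The change was -0.69 ± 0.04 (adjusted p = 8.45e-12), or -0.29 with a length trend removed, against 0.40 in GFP high cells, with a difference of -1.09 ± 0.05. The cytoskeletal linker MACF1 fell by 0.63 ± 0.02, the ligase RNF213 by 0.62 ± 0.03 and the ribosome assembly ATPase MDN1 by 0.49 ± 0.02, with differences of -0.38 ± 0.03 and -0.44 ± 0.04 for the first pair. At the other end, the 5 genes with the largest positive difference include IGKJ5, a joining segment of the kappa light chain locus, with 1.01 ± 0.15; its rise of 0.49 ± 0.10 in GFP low cells was not called with a length trend removed (adjusted p = 0.444).

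Gene classes differed in the same comparison. Of 319 sense intronic transcripts, which lie within introns of other genes, 3 rose and 69 fell, with a median of -0.34 in GFP low and -0.14 in GFP high cells. Of 127 small nucleolar RNAs 36 rose and 3 fell in GFP low cells, with a median of 0.23, and 9 rose and 21 fell in GFP high cells, with a median of -0.22. Of 80 small nuclear RNAs 24 rose and 3 fell. Reads of such genes can come from unspliced host transcripts, and the sources used here do not give the strand setting.

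**Figure D4:**
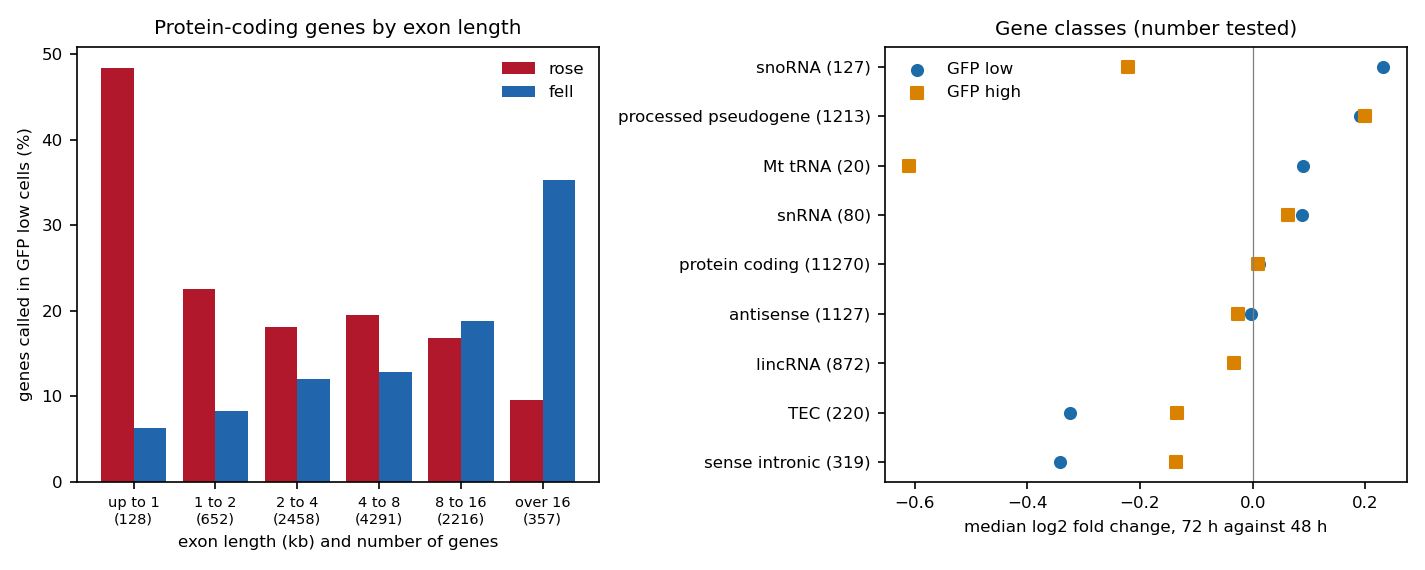
Left, percent of protein-coding genes called as rising (red) or falling (blue) in GFP low cells by exon length in kb, with the number of genes below each class; right, median log2 fold change of 72 h against 48 h by gene class in GFP low (circles) and GFP high cells (squares). Falling genes reach 35.3% above 16 kb, and small nucleolar RNAs have medians of 0.23 and -0.22 in the 2 fractions.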

How the data were processed

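RNA-seq libraries of Raji cells were made from total RNA, per the labels, using KAPA RNA HyperPrep reagents and RiboErase depletion. The authors deposited 1 table of whole-number counts per gene, not normalized, with featureCounts columns per the file headers; the submitters' processing notes name FastQC, STAR, Subread and its featureCounts, R 4.2.1 and hg38. The sources used here do not give the annotation release, strand setting or multi-mapping rule. Column names hold group and library set (unnumbered, 1, 2), not the sample. ANK2, broken over 3 lines, was left out, and 60707 genes were read; gene types are GENCODE 29.

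Counts of all 18 libraries entered 1 model in edgeR 4.0.16 on R 4.3.3 (filterByExpr, TMM, quasi-likelihood F tests, 6 group means, 12 residual degrees of freedom, 2-sided, Benjamini-Hochberg over 16474 genes, call at 0.05). Small changes pass, since the biological coefficient of variation was 3.49% in common. SE is the log2 fold change over the root of F. The fit was tested on simulated data with known changes. Alternatives were DESeq2 1.42.0, RLE factors, other filters, 6 or 12 libraries, the library set as block, leaving out each library, and length, GC or mitochondrial adjustments. Same-set libraries deviated together from the 48 and 72 h means (r = 0.301, 0.493 and 0.465, against -0.379 to -0.039 between sets), so the sets pair the libraries. Library pairs of a group differed by 1.47 to 3.10 times the sampling noise and count as separate. Members and the 45 gene lists were chosen with earlier results of these data known. Named genes are the 10 largest changes each way at 1 CPM or more and again at 50 CPM or more without overlap, 5 each way for the difference, and up to 4 each way plus the largest per list; genes with a promoter element and the iron genes were added, and some genes that the rule names are not reported here. Counts and intervals cover the libraries only.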

Additional observations from a re-analysis of the deposited data

Results flagged for a closer look

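The change from 48 to 72 h differed between GFP low and GFP high cells, by the interaction test, for 855 genes with a higher and 631 with a lower change in GFP low cells. Of the 139 genes whose values or sequences are given in the report or under the other observations, 67 had such a difference, 33 higher and 34 lower in GFP low cells. All values here are log2 differences, GFP low change minus GFP high change.

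Mitochondrial transcripts had differences of 1.02 (MT-CO2), 1.11 (MT-ATP6), 0.92 (MT-ND4) and 1.06 (MT-TI), and the mitochondrial ribosomal RNAs of -5.24 (MT-RNR1) and -5.61 (MT-RNR2). Among noncoding and host genes the values were 1.22 for NEAT1, 0.59 for MALAT1, 0.64 for SNHG1, 0.56 for SNHG15 and 0.38 for GAS5, and for the decay factors SMG1 and UPF3B -0.22 and 0.20. Splicing regulators had 0.35 (HNRNPA2B1), 0.29 (HNRNPA1) and 0.30 (HNRNPH1), and histone genes 0.39 (H2AC8), 0.33 (H2AC14), 0.28 (H2AC20) and 0.21 (H2BC11). Metabolic and stress genes were at 0.77 (DBNDD1), -0.13 (WARS1), -0.16 (PSPH), 0.24 (SCD), 0.26 (OLMALINC), -0.14 (FDFT1), -0.09 (FTH1), -0.15 (NQO1) and -0.12 (HSPA8). Genes of respiration and of the ribosome were at 0.38 (NDUFB1), 0.18 (UQCRH), -0.16 (SDHB), 0.35 (RPS21), 0.17 (RPS29), -0.21 (RPS3A) and -0.12 (RPSA). Cell cycle genes were at 0.07 (MCM4), -0.16 (BUB1), 0.20 (HMGB2), 0.13 (PTTG1) and 0.21 (BTG2), and the segment IGKJ5 at 1.01.

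Among B cell genes the change was higher in GFP low cells for BCL6 (0.41), POU2AF1 (0.15), CD72 (0.27) and CD38 (0.28). It was lower for CCR7 (-0.78), GPR183 (-0.38), CCL3 (-0.36), SGK1 (-0.29), BCL2 (-0.24), FAS (-0.33), TNFAIP3 (-0.29), CD83 (-0.54), CCL5 (-0.69), VCAM1 (-0.95), EBI3 (-0.56), FCRL3 (-0.76), SLAMF7 (-0.95), CTSH (-0.41), HLA-DRB1 (-0.41) and HLA-DRA (-0.26). Long transcripts had differences of -1.09 (XACT), -1.21 (TTN), -0.44 (RNF213), -0.38 (MACF1) and -0.27 (MDN1).

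Some of these calls were lost when 1 of the 12 GFP low and GFP high libraries at 48 and 72 h was left out. MCM4 was lost in all 12 such fits (adjusted p from 0.0558 to 0.159), H2AC20 in 10 (0.0157 to 0.162), CCL5, GPR183 and PTTG1 in 9 (up to 0.141, 0.126 and 0.128) and H2AC14 in 8 (up to 0.151). CD72 and UPF3B were lost in 7 (up to 0.107 and 0.0885), OLMALINC in 4 (up to 0.0834), DBNDD1 in 2 and BCL2 in 1 (up to 0.0583 and 0.0548).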

How the results depend on the processing

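No called change reversed among 139 named genes under 16 alternatives for the 72 h against 48 h comparison, or among the 67 with a called difference under 21. With the library set as a block, 3440 genes rose against 2286, and for the difference 1927 were higher against 855 and 1404 lower against 631; this fit kept 4347 of the 4353 calls and 1485 of 1486. For 72 h against 48 h it added a call for SMARCA4 and MT-ND6 and changed no other call of the 139 named genes. It also kept the 67 called differences. Differences of named genes that the main fit did not call were not followed under the alternatives. With length and GC trends removed, an alternative chosen after seeing the data, 1279 genes had a lower difference and SMARCA2 passed (adjusted p = 0.0497). Leaving out 1 library gave 1730 to 1895 genes higher and 1707 to 2026 lower at 72 h, and 576 to 812 higher and 467 to 639 lower for the difference. Of the 206 single gene results 184 kept their side of the threshold throughout, and 18 lost a call under some alternative. Besides the differences listed above, these were H2AC8's difference and, for 72 h against 48 h, DPF1, RFXAP, BBC3, NOP2, and MT-TI and IGKJ5 with the length trend removed, or with GC as well (0.257 and 0.305). MT-ND6 also passed when only the groups compared were fitted (0.048) and with no filter on low counts (0.00357). A block fit of the 6 libraries alone, also chosen after seeing the data, called 6098 genes. Of all calls 52.5% rose, and 44.9% with the length trend removed. Genes under 1 CPM, such as MT-RNR1, rest on few counts.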

Other observations

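Targets of p53 rose more often than they fell: of 25 tested 9 rose and 2 fell (median 0.06), and the count that fell was 4 without the set 1 48 h library and 5 with the library set as a block. Besides CDKN1A and SESN2 they include the cyclin CCNG1 (0.39), the antiproliferative BTG2 (0.32), the death receptor TNFRSF10B (0.38) and the BH3-only protein BBC3, also called PUMA (0.44, not called without the set 1 48 h or the set 2 72 h library, adjusted p = 0.0744 and 0.0964), while the death receptor FAS was lower (-0.18). In GFP high cells 8 rose and 3 fell.

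Of 41 MYC targets 5 rose (12.2%, against 13.9% of all genes) and 11 fell (26.8%, against 12.5%), with a median of -0.02. With the library set as a block 7 rose and 19 fell. NOP2, a ribosomal RNA methyltransferase, had -0.30 (not called without the set 2 48 h or the set 1 72 h library, adjusted p = 0.0628 and 0.0735) and the RNA polymerase I subunit POLR1A -0.21, whereas SHMT2, a mitochondrial enzyme of serine use that ATF4 also regulates, had 0.44. Of 26 interferon-stimulated genes tested (40 in the list) 2 rose and 6 fell (median -0.21), among them IFIT3 (-0.80), SAMD9L (-0.67) and the viral RNA sensor IFIH1 (-0.23); 1 rose without the unnumbered or the set 2 72 h library. Of 16 heat shock genes 0 rose and 5 fell, or 1 and 9 with the library set as a block, with HSPA8, the constitutive chaperone, at -0.17.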
